A study of Mus musculus with 6 samples.

Results

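Pericytes and vascular smooth muscle cells are the mural cells that wrap the small vessels and arterioles of a tissue, and in the sciatic nerve they lie in the endoneurium and in the vessels of the epineurium. The genes described here are 32 markers of these cells, named by symbol as a list of contractile proteins and of pericyte receptors, channels and signalling proteins. A gene was read through probe sets that carry exactly 1 gene symbol, and through the brightest of them where there were several. Of the 32 genes, 31 were measured, out of 22180 genes on the arrays. Ednra, the endothelin receptor A gene, had no such probe set in the annotation used here and has no value. The 31 fall into 17 contractile genes and 14 genes of pericytes and mural signalling. The contractile group also holds Itga8, an adhesion gene, and Sncg, a synuclein gene.

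The tissue was the whole sciatic nerve, taken at 10 months of age. There were 3 samples of Srebf-1c KO mice, which lack a form of the lipogenic transcription factor gene Srebf1, and 3 samples of wild-type (WT) littermates, each on 1 Affymetrix whole-transcript array. The labels give neither strain, sex nor the vessels that the dissected nerve kept, and leave unsaid whether every sample is a separate animal. The p-values therefore speak of sample-to-sample spread, some of which may be technical. Groups follow the titles and the genotype field, although the source name given for the KO samples is that of wild type.

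Smooth muscle shortens when calcium activates myosin light chain kinase, which lets myosin pull on actin filaments held by tropomyosin, caldesmon and calponin. Genes of this apparatus share a transcriptional programme run by serum response factor and its partner myocardin. Pericytes carry less of it. They are recruited to endothelium by platelet-derived growth factor through its beta receptor and kept in place in part by Notch signalling.

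Values are log2 of the deposited intensity. Srebf1 itself stood at 8.11, 8.06 and 8.04 on the KO arrays, against 9.53, 9.55 and 9.70 on the WT arrays (log2 fold change -1.52 ± 0.11 (SE), limma adjusted p = 0.0497), so the arrays follow their titles. It was the 1 gene of 22180 past an adjusted p of 0.05, which is 0.00451% of genes. Median intensity over all probe sets ran from 115.5 to 122.6 over the 6 arrays. With 3 arrays a group, an exact permutation test could not give a p below 0.1, and the array number sets the precision. Markers of tissues beside the nerve differed widely between arrays, and their values stand beside the results they move with.

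No mural cell gene passed the test between genotypes after adjustment. In limma 0 of 31 had an adjusted p under 0.05, and the smallest was 0.85. Rgs4, Rgs16 and Pln, 3 members, had an unadjusted p under 0.05, all with a lower mean in KO. That is 9.68% of the members, against 5.83% of all genes (3.49% lower and 2.34% higher in KO). An unmoderated ANOVA had 1 member under that p, Rgs4, against 6.37% of all genes. The criterion of the study, an unadjusted p under 0.05 with a change of at least 1.5-fold, was met by Rgs4 and Pln in limma, 6.45% of the members against 1.19% of all genes (0.555% lower and 0.64% higher in KO). The means leaned one way: 27 of 31 genes had a lower mean in KO, against 56.9% of all genes, with a median log2 fold change of -0.34, against -0.03 over all genes. The median was -0.42 for contractile genes and -0.22 for pericyte genes. Single arrays moved these medians: without KO replicate 3 both the median of all members and that of contractile genes were -0.16. Without KO replicate 2 the median of all members was -0.52, and without WT replicate 1 that of contractile genes was -0.66. Lists outside the members leaned this way too. A lower mean in KO was seen in 23 of 29 other smooth muscle genes, 18 of 26 other pericyte genes and 15 of 18 endothelial markers. It was also seen in 25 of 33 ligands and partners. Skeletal muscle markers leaned the other way, with 16 of 24 higher in KO, and Schwann cell markers were split, with 7 of 13 higher. In bulk nerve, fewer cells of a type and less RNA per cell cannot be told apart.

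**Figure D1:**
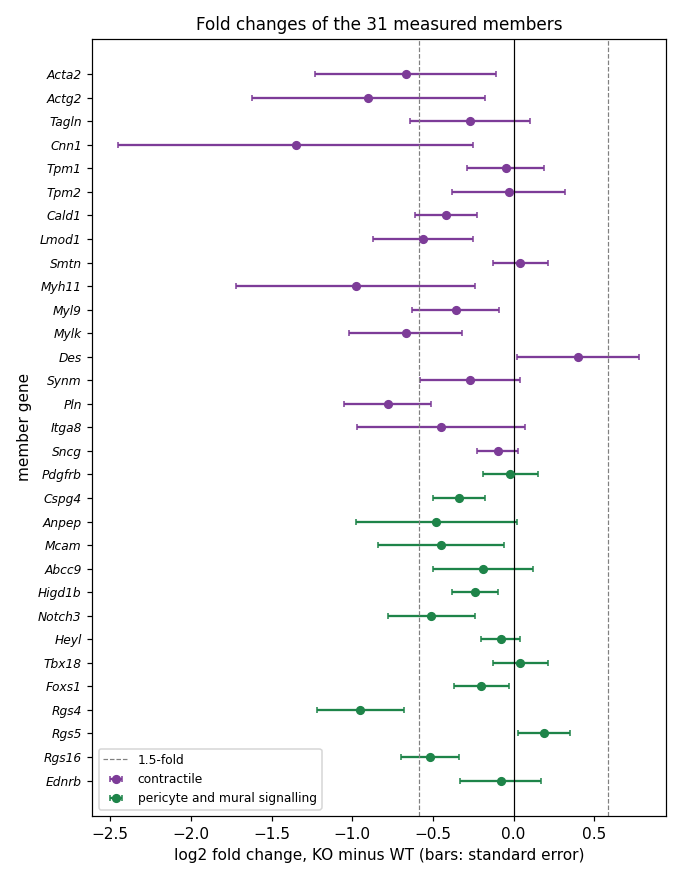
Log2 fold change, KO minus WT, of the 31 measured mural cell genes on the horizontal axis, with bars of 1 standard error from limma and dashed lines at a 1.5-fold change. Most points lie left of 0, and the widest bars belong to Cnn1, Myh11 and Actg2. Those genes, Acta2, Mylk, Pln and Rgs4 lie past the left line, and of these only the bar of Rgs4 stays wholly past it.

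The contractile genes spread widely between arrays, within both genotypes. The difference between the highest and the lowest array had a median of 1.43 on the log2 scale over the contractile genes, 0.8 over the pericyte genes and 0.54 over all genes. In 16 of 31 genes the 3 highest arrays were KO replicate 2 with WT replicates 2 and 3, a pattern noticed in the data and seen in 10.0% of all genes. Those were 11 of 17 contractile genes and 5 of 14 pericyte genes. KO replicate 3 was the lowest array for 15 of 31 genes, against 16.6% of all genes, and the highest for 0 of them.

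**Figure D2:**
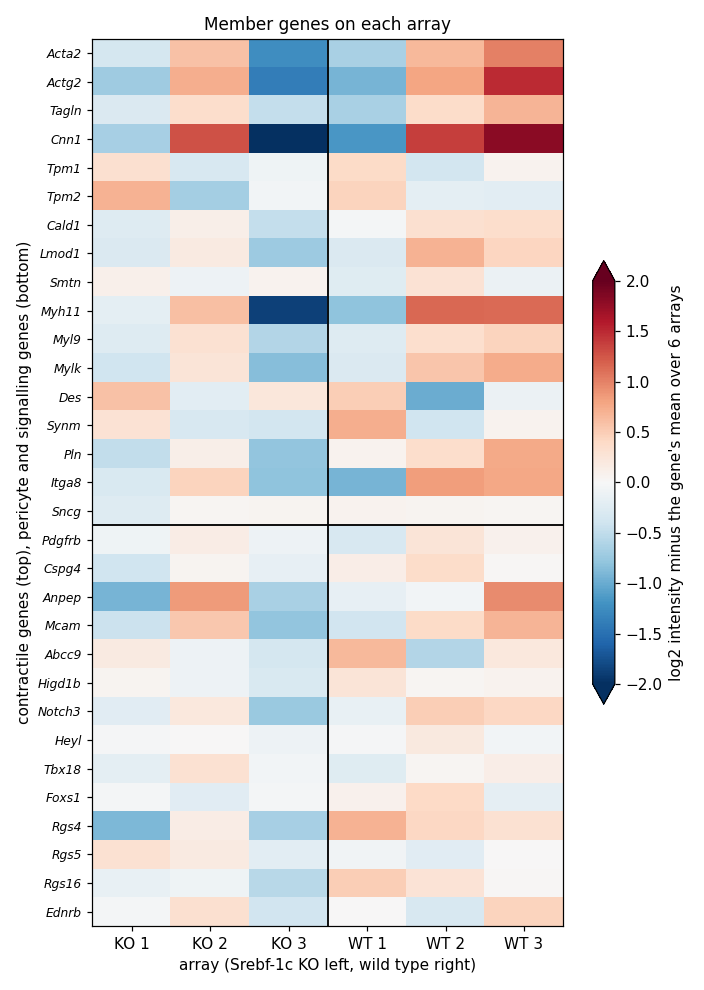
Each row is a gene and each column an array, KO arrays on the left and WT arrays on the right, and colour gives the log2 intensity after the gene's own average on 6 arrays was subtracted. The rows of Acta2, Actg2, Cnn1 and Myh11 are red on KO 2, WT 2 and WT 3 and blue on KO 1, KO 3 and WT 1, while Heyl, Sncg and Pdgfrb are pale throughout.

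Among the thin filament genes, Acta2, which encodes the alpha actin of smooth muscle, had a log2 intensity of 11.65, 12.59 and 10.75 on the KO arrays, against 11.35, 12.65 and 13.00 on the WT arrays. The groups overlapped, since KO replicate 2 lay close to WT replicate 2 and WT replicate 1 lay below KO replicate 1. Its log2 fold change was -0.67 ± 0.56 (SE, limma adjusted p = 0.9), and the highest array stood 4.77-fold above the lowest. Actg2, the gamma actin of visceral smooth muscle, followed the same arrays with 6.92, 8.36 and 6.25 in KO, against 6.69, 8.42 and 9.12 in WT (log2 fold change -0.90 ± 0.72, limma adjusted p = 0.897). Actin genes are close relatives, and their probe sets may share transcripts.

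Cnn1 encodes calponin, an actin-binding protein confined largely to differentiated smooth muscle, and it had the widest spread of the members. It stood at 8.28, 10.22 and 6.30 in KO, against 7.78, 10.32 and 10.75 in WT. KO replicate 3 was the lowest array and WT replicate 3 the highest, 21.9-fold apart, yet KO replicate 2 lay within the WT range, and the log2 fold change was -1.35 ± 1.10 (SE, limma adjusted p = 0.897). Tagln, which encodes the actin cross-linker transgelin, stood at 10.83, 11.48 and 10.65 in KO, against 10.48, 11.49 and 11.81 in WT. Here WT replicate 1 was the lowest of all, and the log2 fold change was -0.27 ± 0.37 (limma adjusted p = 0.945).

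The start regions of 25 of the 32 genes were read for the CArG box, the binding motif of serum response factor. It is CC, then 6 bases that are each A or T, then GG, and reads the same way on both strands. The regions were those of RefSeq (GRCm38.p6, 250 bases before to 50 after a start). Actg2, Tagln, Myh11, Pdgfrb, Higd1b, Heyl and Foxs1 were not among the genes read. The 15 regions of contractile genes belong to 14 genes, since Cald1 has more than 1 start. The box stood in 1 of 15 start regions of contractile genes, that of Myl9, in 0 of 11 of pericyte genes and in 1.63% of all 32851. With at most 1 of the central bases being C or G, a wider form chosen after the first search, it stood in 3 of 15 (Acta2, Myl9 and Synm), in 1 of 11 (Tbx18) and in 9.98% of all. The regions of Acta2 and Myl9 are printed because they hold boxes, and that of Cnn1 because this gene varied most. Capitals mark the boxes in the wider form, and positions count from the RefSeq start, so the boxes begin at -84 and -34 in Acta2 and at -161 and -99 in Myl9. The Cnn1 window holds neither form. A match is a description of the letters and not evidence of binding.
Acta2, chr19:34255324-34255623, minus strand: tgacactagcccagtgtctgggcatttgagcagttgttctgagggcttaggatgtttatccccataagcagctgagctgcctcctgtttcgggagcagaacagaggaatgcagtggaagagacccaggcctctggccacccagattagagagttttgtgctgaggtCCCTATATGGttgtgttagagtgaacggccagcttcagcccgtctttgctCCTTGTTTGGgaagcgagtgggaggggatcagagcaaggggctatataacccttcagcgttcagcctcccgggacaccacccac
Myl9, chr2:156775214-156775513, plus strand: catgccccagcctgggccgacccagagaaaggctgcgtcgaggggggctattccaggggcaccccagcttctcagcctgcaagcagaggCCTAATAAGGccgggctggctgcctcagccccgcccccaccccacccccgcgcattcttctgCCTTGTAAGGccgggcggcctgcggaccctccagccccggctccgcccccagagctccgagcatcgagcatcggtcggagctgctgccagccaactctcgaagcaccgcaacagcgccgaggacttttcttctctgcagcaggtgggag
Cnn1, chr9:22099003-22099302, plus strand: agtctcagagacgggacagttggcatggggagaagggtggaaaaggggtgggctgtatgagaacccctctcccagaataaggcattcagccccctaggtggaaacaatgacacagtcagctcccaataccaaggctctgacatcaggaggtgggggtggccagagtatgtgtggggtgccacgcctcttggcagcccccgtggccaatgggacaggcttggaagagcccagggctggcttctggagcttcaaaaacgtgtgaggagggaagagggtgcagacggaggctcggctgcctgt

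The other thin filament genes split in their pattern. Cald1, which encodes caldesmon, stood at 9.0, 9.38 and 8.78 in KO, against 9.22, 9.59 and 9.61 in WT, with 2 KO arrays below every WT array and KO replicate 2 between WT replicates 1 and 2. Its log2 fold change was -0.42 ± 0.19 (SE, limma adjusted p = 0.86). Lmod1, the leiomodin that nucleates actin filaments in smooth muscle, had a log2 fold change of -0.56 ± 0.31. Smtn, which encodes smoothelin, stood at 0.04 ± 0.17, with its dimmer probe set at -0.09. The tropomyosin genes Tpm1 and Tpm2 stood at -0.05 ± 0.24 and -0.03 ± 0.35 and ran against the actins: Tpm2 was at 11.77, 10.39 and 11.02 in KO, against 11.52, 10.88 and 10.86 in WT, highest on KO replicate 1 and WT replicate 1.

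The myosin genes Myh11 and Myl9 and the myosin kinase gene Mylk followed the actins. Myh11, the smooth muscle myosin heavy chain and the most specific marker of the contractile state, stood at 10.51, 11.31 and 8.84 in KO, against 9.90, 11.86 and 11.84 in WT. KO replicate 3 was the lowest array, WT replicate 1 lay below 2 of the 3 KO arrays, and the log2 fold change was -0.98 ± 0.74 (SE, limma adjusted p = 0.892). Mylk, the kinase that starts contraction, stood at 7.88, 8.54 and 7.43 in KO, against 8.0, 8.84 and 9.02 in WT, with overlap through KO replicate 2 (log2 fold change -0.67 ± 0.35, limma adjusted p = 0.868). Myl9, the regulatory light chain that this kinase phosphorylates, had a log2 fold change of -0.36 ± 0.27.

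Pln encodes phospholamban, the brake on the calcium pump of the sarcoplasmic reticulum in smooth and cardiac muscle, and was the contractile gene with the smallest p. It stood at 7.64, 8.25 and 7.34 in KO, against 8.20, 8.48 and 8.90 in WT. KO replicate 2 lay just above WT replicate 1, and the other KO arrays lay below all WT arrays. The KO mean was 0.582 of the WT mean, with a log2 fold change of -0.78 ± 0.27 (SE, limma adjusted p = 0.85). Slow skeletal muscle makes phospholamban too. Without KO replicate 1, KO replicate 3, WT replicate 2 or WT replicate 3 Pln no longer met the criterion of the study, nor did it in the unmoderated ANOVA.

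The intermediate filament genes had array orders of their own. Des, which encodes desmin of all muscle types, stood at 12.80, 12.01 and 12.44 in KO, against 12.71, 11.23 and 12.10 in WT, and was 1 of 4 members with a higher mean in KO (0.40 ± 0.38, limma adjusted p = 0.912). Its partner gene Synm, for synemin, stood at -0.27 ± 0.31. Des and Tpm2 were the 2 members whose 3 highest arrays were KO replicates 1 and 3 with WT replicate 1, an order in 6.75% of all genes and in 8 of 24 skeletal muscle markers, 0 of which had the arrays of Acta2 on top. The mean over all 24 muscle markers, each gene centred on its own mean, was 0.25, -0.36 and 0.52 in KO, against 0.88, -0.95 and -0.34 in WT. Of these 24 markers, 16 had a higher and 8 a lower mean in KO, with a median log2 fold change of 0.13. The muscle markers with the smallest p, Myl1, Actn2, Mb and Myh2, had log2 fold changes of 0.42 ± 0.25, 1.33 ± 0.85, 0.85 ± 0.63 and 1.13 ± 0.85. Actn2, the muscle alpha-actinin, stood at 12.19, 9.92 and 12.10 in KO, against 11.78, 9.13 and 9.32 in WT, with overlap. The part of muscle in the values of Des, Synm, Tpm1, Tpm2 and Pln was not tested.

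Itga8, the integrin alpha 8 chain found on smooth muscle, had its 3 highest values on KO replicate 2 and WT replicates 2 and 3, with a log2 fold change of -0.45 ± 0.52. Sncg, the gamma-synuclein gene, which neurons also express, was nearly flat at 12.29, 12.59 and 12.60 in KO, against 12.61, 12.60 and 12.59 in WT.

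**Figure D3:**
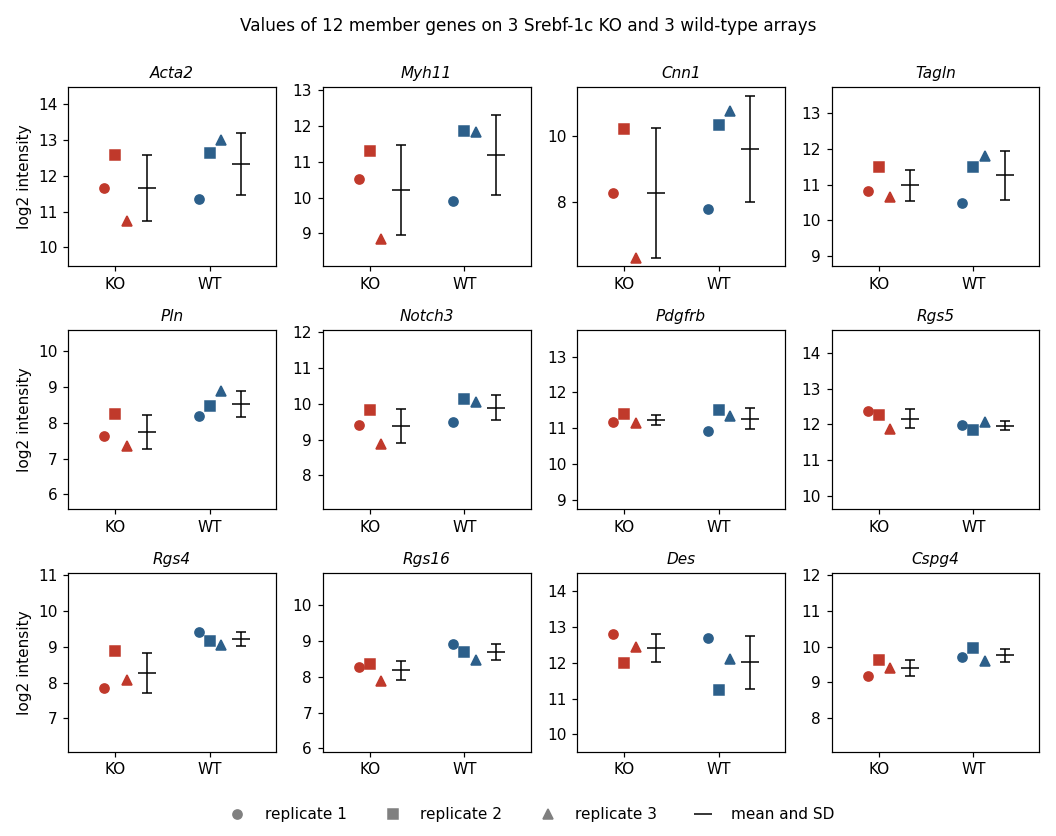
Log2 intensity of 12 mural cell genes, KO on the left and WT on the right of each panel. Each replicate has 1 symbol, with the mean and SD of 3 arrays beside them. The axes span equal log2 ranges, except that of Cnn1, which spans more. Acta2, Myh11 and Cnn1 scatter widely within both groups, Pdgfrb and Rgs5 vary less, and Rgs4 and Rgs16 are the panels in which the groups do not overlap.

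The pericyte genes had narrower ranges than the contractile genes, and no defining one passed the test. Pdgfrb, the receptor through which endothelial platelet-derived growth factor recruits pericytes, stood at 11.17, 11.40 and 11.15 in KO, against 10.93, 11.50 and 11.34 in WT (log2 fold change -0.02 ± 0.17 (SE), limma adjusted p = 0.994). The KO values lay within the WT range. Cspg4, the NG2 proteoglycan of pericytes that glial precursors and fibroblast-like cells also carry, stood at 9.18, 9.64 and 9.41 in KO, against 9.71, 9.95 and 9.6 in WT. KO replicate 2 lay just above WT replicate 3 and the groups overlapped by that pair alone (log2 fold change -0.34 ± 0.16, limma adjusted p = 0.867).

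Abcc9, the sulphonylurea receptor subunit of the potassium channel of mural cells, stood at 10.65, 10.37 and 10.12 in KO, against 11.13, 9.89 and 10.69 in WT, with WT replicate 2 the lowest array (log2 fold change -0.19 ± 0.31, limma adjusted p = 0.958). This subunit is also made in muscle. Its usual partner Kcnj8, the pore gene, stood at -0.15 ± 0.17. Higd1b, a mitochondrial gene known from pericytes, was dim and stood at -0.24 ± 0.14. Anpep and Mcam, surface proteins of pericytes shared with fibroblasts and endothelium, stood at -0.48 ± 0.50 and -0.45 ± 0.39 and had KO replicate 2 with WT replicates 2 and 3 as their highest arrays.

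Notch3, the Notch receptor of arterial smooth muscle and pericytes, stood at 9.41, 9.84 and 8.89 in KO, against 9.49, 10.13 and 10.05 in WT. KO replicate 3 was lowest and KO replicate 2 lay inside the WT range (log2 fold change -0.51 ± 0.27, limma adjusted p = 0.87). Heyl, a Notch target gene of mural cells, was among the flattest members, with 1.24-fold between its highest and lowest array and a log2 fold change of -0.08 ± 0.12. The transcription factor genes Tbx18 and Foxs1, both known from mural cells, stood at 0.04 ± 0.17 and -0.20 ± 0.17. Ednrb, the endothelin receptor B gene, which glia and endothelium also express, stood at -0.08 ± 0.25.

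Regulators of G protein signalling held the 2 members whose groups lay apart. They end signals from G protein-coupled receptors, among them those for angiotensin and endothelin. Rgs4 stood at 7.84, 8.89 and 8.07 in KO, against 9.43, 9.16 and 9.05 in WT. Every KO array lay below every WT array, with KO replicate 2 closest to them. The KO mean was 0.519 of the WT mean, with a log2 fold change of -0.95 ± 0.27 (SE, limma adjusted p = 0.85). Leaving out any 1 array kept it between -1.26 and -0.73, and Rgs4 met the criterion of the study each time.

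Rgs16 stood at 8.29, 8.36 and 7.89 in KO, against 8.93, 8.71 and 8.47 in WT, again with no overlap. Rgs4 and Rgs16 were both highest on WT replicate 1, the WT array with the lowest mean over the contractile genes. Which cells their RNA came from was not tested. Its log2 fold change of -0.52 ± 0.18 (SE, limma adjusted p = 0.85) fell short of 1.5-fold. Rgs4 and Rgs16 were the 2 of 31 members whose groups did not overlap, both lower in KO, 6.45% against 12.3% of all genes (8.21% lower in KO), so the members' share was not above that of all genes. Rgs5, the pericyte marker that directly neighbours Rgs4 on chromosome 1 with no gene between them in RefSeq, stood at 12.37, 12.25 and 11.86 in KO, against 11.99, 11.84 and 12.07 in WT. The groups overlapped, and the log2 fold change was 0.19 ± 0.16 (limma adjusted p = 0.902), with 0.45 at its dimmer probe set.

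The calls depended on single arrays. Without KO replicate 2 the criterion of the study was met by 9 members, against 2.49% of all genes: Lmod1, Myl9, Mylk, Pln, Anpep, Mcam, Notch3, Rgs4 and Rgs16, all with a lower mean in KO. Without WT replicate 1 it was met by 8, against 1.96% of all genes: Actg2, Tagln, Lmod1, Mylk, Pln, Itga8, Notch3 and Rgs4, again all lower in KO. Without KO replicate 1, KO replicate 3 or WT replicate 2 it was met by Rgs4 alone, and without WT replicate 3 by Rgs4 and Rgs16. In that order, it was met by 1.31%, 1.04%, 1.63% and 2.2% of all genes. KO replicate 2 is the KO array with high contractile values, and WT replicate 1 the WT array with low ones.

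Smooth muscle genes outside the members gave no call between genotypes after adjustment. Of 29 measured, 0 passed an adjusted p of 0.05 in limma. An unadjusted p under 0.05 was seen in 3 of 29, all with a lower mean in KO, against 5.83% of all genes (3.49% lower in KO). The median log2 fold change was -0.28. In 14 of 29 the 3 highest arrays were KO replicate 2 with WT replicates 2 and 3, an order in 10.0% of all genes, and in the other 15 they were not. Myocd, the myocardin gene, stood at 7.41, 8.31 and 6.80 in KO, against 7.10, 8.58 and 8.77 in WT, the same order of high and low arrays as Acta2. Srf, the factor it works with, was highest on WT replicate 1 instead, at 10.09, and stood at -0.34 ± 0.22. The smallest p belonged to Npnt, the nephronectin gene whose product binds integrin alpha 8, with 8.39, 8.56 and 8.62 in KO, against 9.11, 8.90 and 9.22 in WT and no overlap (log2 fold change -0.55 ± 0.14, limma adjusted p = 0.85). Susd5 stood at -0.73 ± 0.27 and Cnn2, the more widely expressed calponin, at -0.42 ± 0.16. The groups of Cnn2 did not overlap either. Npnt and Cnn2 were the 2 of 29 genes without overlap, against 12.3% of all genes (8.21% lower in KO). Pcp4l1 stood at -0.28 ± 0.15.

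Of 26 further pericyte genes measured, 0 had an unadjusted p under 0.05 in limma, against 5.83% of all genes. The median log2 fold change was -0.12. KO replicate 2 with WT replicates 2 and 3 were the highest arrays in 9 of 26, against 10.0% of all genes. Gucy1b1 and Gucy1a1, the subunits of the nitric oxide receptor, stood at -0.49 ± 0.21 and -0.56 ± 0.32, Cox4i2, a subunit of cytochrome c oxidase made in pericytes, at 0.26 ± 0.14 and Colec11, a collectin gene, at -0.31 ± 0.17.

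Among 33 measured ligands and partners of these receptors, 1 gene had an unadjusted p under 0.05 with a higher and 1 with a lower mean in KO, and none passed adjusted. Over all genes 2.34% were under that p with a higher and 3.49% with a lower mean in KO. Agtr1b, an angiotensin receptor gene, stood at 6.86, 6.94 and 6.4 in KO, against 7.11, 7.67 and 7.63 in WT, without overlap (log2 fold change -0.74 ± 0.21, limma adjusted p = 0.85). Rbpj, the DNA-binding partner of Notch, stood at 9.03, 8.99 and 8.94 in KO, against 8.19, 8.76 and 8.59 in WT, the groups again apart (0.47 ± 0.16, limma adjusted p = 0.85). The ligand genes Pdgfb, Jag1 and Edn1 stood at -0.16 ± 0.19, -0.40 ± 0.35 and 0.05 ± 0.22, and Rgs2 at -0.50 ± 0.24. Dll1, a Notch ligand gene, stood at 6.83, 6.99 and 6.67 in KO, against 7.14, 7.0 and 7.55 in WT, apart by a narrow margin (-0.40 ± 0.17, limma adjusted p = 0.852). Agtr1b, Rbpj and Dll1 were the 3 of 33 genes without overlap, against 12.3% of all genes. In 12 of 33 of these genes KO replicate 2 with WT replicates 2 and 3 were the highest arrays, against 10.0% of all genes.

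Other cell types ran beside the mural genes to different degrees. The list mean, with each gene centred on its own mean, was -0.15, 0.20 and -0.71 in KO, against -0.24, 0.34 and 0.55 in WT for contractile genes. For pericyte genes it was -0.21, 0.16 and -0.37 in KO, against 0.07, 0.12 and 0.22 in WT. The contractile list overlapped between genotypes and the pericyte list overlapped through KO replicate 2. The 18 endothelial markers had -0.03, 0.22 and -0.45 in KO, against -0.13, 0.11 and 0.28 in WT, so KO replicate 3 was low here too. The 16 measured adipocyte markers had -0.59, 1.2 and -0.90 in KO, against -0.74, -0.25 and 1.27 in WT, highest on WT replicate 3 and KO replicate 2, with WT replicate 2 next. In 9 of 16 adipocyte markers and 6 of 18 endothelial markers the 3 highest arrays were KO replicate 2 with WT replicates 2 and 3. Over all genes that order was seen in 10.0%, so it was not limited to the mural genes. The 16 fibroblast and perineurial markers had -0.44, 0.38 and -0.01 in KO, against -0.24, 0.0 and 0.30 in WT. The 14 measured macrophage and mast cell markers had -0.38, 0.46 and 0.02 in KO, against -0.26, -0.14 and 0.31 in WT. Both lists were highest on KO replicate 2 and WT replicate 3, with that order of 3 arrays in 4 of 16 and 2 of 14 markers. The 13 measured Schwann cell markers stayed between -0.08 and 0.08 in KO and between -0.17 and 0.23 in WT. The part of these tissues in the mural values was not tested.

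**Figure D4:**
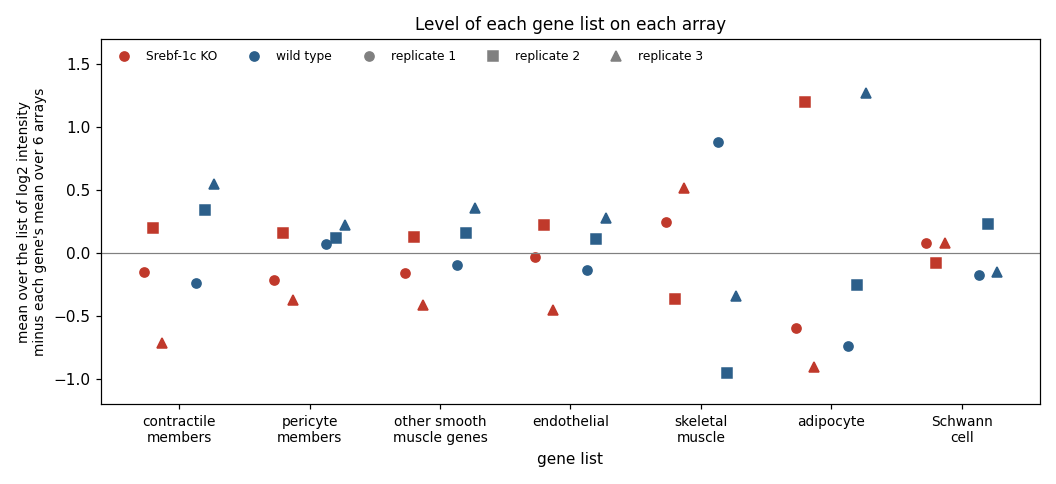
Mean over each gene list of the log2 intensity, each gene centred on its average, with KO arrays left and WT arrays right for each list and 1 symbol per replicate. Contractile genes run from -0.71 on KO replicate 3 to 0.55 on WT replicate 3, adipocyte and skeletal muscle markers spread further, and Schwann cell markers stay near 0.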

How the data were processed

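Expression was measured on 6 Affymetrix arrays, 3 Srebf-1c KO and 3 wild type. The authors deposited linear intensities, 1 per probe set, made with RMA (background correction, normalization and summary of probes) in TAC and Partek, per the labels' design text. The submitters' processing notes name the build mm8, and no software version is stated.

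Log2 was taken without a pseudocount. Of 41077 probe sets, 23521 carried 1 gene symbol in the platform annotation, giving 22180 genes. 1 probe set per gene was kept, by highest mean. The difference KO minus WT came from limma 3.58.1 in R 4.3.3 (lmFit, eBayes), with two-sided moderated tests and Benjamini-Hochberg adjustment over 22180 genes, and was tested on simulated data. No filter on dim genes was applied. List means and array orders are descriptions with no test. Members and lists were chosen with earlier results of these data known. All members are named, and those with an unadjusted p under 0.10 and the defining genes are given by array. The 4 genes with the smallest p are named from the smooth muscle, pericyte, ligand and skeletal muscle lists, and other lists are given by means and counts. Myocd, Srf, Kcnj8, Pdgfb, Jag1 and Edn1 were added after their values were seen, as was Vmn1r157. Array values of Actg2, Tpm2, Des and Sncg were likewise added. Between KO and WT arrays of the same replicate number, deviations from the group mean had correlations of 0.12, 0.01 and -0.23 over all genes. The fit reported treats the samples as unpaired, and such correlations cannot settle whether they are. Python 3.11.15, pandas 2.3.3, numpy 2.4.6 and matplotlib 3.10.9 were used.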

Additional observations from a re-analysis of the deposited data

How the results depend on the processing

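Of 247 comparisons of a member's log2 fold change with an alternative on all arrays, 241 kept direction and none passed an adjusted p of 0.05. Many of them could not have turned, so the count of kept directions says little. The replicate block, the unmoderated ANOVA, the intensity trend with robust prior and leaving out the dimmest 50% of genes cannot change a fold change. The mean of probe sets could move only Smtn and Rgs5, the members with a second probe set. The 6 that turned were near 0: Tpm2 with array weights (0.081) and with arrays at 1 median (0.0016), Smtn with the mean of probe sets (-0.025) and repeated quantile normalization (-0.0068), Pdgfrb with arrays at 1 median (0.01) and Tbx18 with array weights (-0.031). With 1 array left out, 170 of 186 kept direction. The turns lay in Tpm1 (-0.25 to 0.13), Tpm2 (-0.38 to 0.30), Smtn (-0.067 to 0.21), Synm (-0.54 to 0.032), Pdgfrb (-0.18 to 0.10), Abcc9 (-0.53 to 0.092), Tbx18 (-0.098 to 0.15) and Ednrb (-0.26 to 0.12).

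Members past the study's criterion were 2 in the fit reported, 5 with array weights (Lmod1, Mylk, Pln, Notch3 and Rgs4), 1 in the unmoderated ANOVA, 0 at a fold limit of 2, and 1 to 9 with 1 array left out. Over all genes the count was 265 (1.19%) in the fit reported and 359 (1.62%) with array weights. It was 138 in the ANOVA, 89 without the dimmest 50% of genes and 34 at a fold limit of 2. With 1 array left out it was 231 to 552. Medians of log2 fold changes kept their sign: -0.52 to -0.16 for all members, -0.66 to -0.16 for contractile and -0.27 to -0.16 for pericyte genes with 1 array left out. A further setting left out 14 members shared with other cell types: Des, Synm, Pln, Tpm1, Tpm2, Myl9, Cald1, Mylk, Sncg, Ednrb, Mcam, Anpep, Cspg4 and Rgs16. The medians were then -0.27 over 17 members, -0.61 over 8 contractile and -0.19 over 9 pericyte genes.

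The count past an adjusted p of 0.05, which was Srebf1 alone in the fit reported, was 0 with arrays at 1 median (Srebf1 -1.49, adjusted p = 0.0842), after repeated quantile normalization (-1.46, adjusted p = 0.0594), with the replicate block (-1.52, adjusted p = 0.713) and in the unmoderated ANOVA (-1.52, adjusted p = 0.308). It was 0 to 1 with 1 array left out (Srebf1 -1.56 to -1.47, limma adjusted p 0.255 to 0.764). The 1 gene was not Srebf1 but Vmn1r157, a vomeronasal receptor gene and no member, without KO replicate 2 (2.27, limma adjusted p = 0.0298). The replicate block left Rgs4 and Pln past the criterion and added Cspg4 to the members under an unadjusted p of 0.05, 4 in place of 3. That count was 7 with array weights and 1 to 11 with 1 array left out. The share of all genes under that p is not given for these settings, so these counts have no background beside them. The replicate numbers come from the titles, and whether they mark pairs of samples is not known. The array weights were 1.338, 0.8151 and 2.291 for KO replicates 1, 2 and 3, against 0.615, 0.6616 and 0.9831 for WT. KO replicate 3, the lowest array for 15 of 31 members, thus counted most, and WT replicate 1 least. Except where fewer genes or arrays enter, the cause of these shifts was not tested.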
